A study of Mus musculus with 40 samples.

Results

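The Neurod1-high tumors were 3 of the 22 end-stage mouse gliomas profiled here. They were chosen by a measured value: Neurod1 stood above 10 on the log2 scale in these tumors and below it in the other 19. They are called by that rule and by their array numbers. Tumors 36 and 41 were p53nullCKO gliomas and tumor 50 was a p53R172HCKO glioma. The other 19 gliomas comprised 9 of the p53nullCKO model and 10 of the p53R172HCKO model, and all 22 carry the label of malignant glioma.

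The p53nullCKO mice were hGFAP-cre+;p53floxE2-10/floxE2-10, so that Cre removed the p53 coding region from both alleles. The p53R172HCKO mice were hGFAP-cre+;p53LSLR172H/floxE2-10, with a missense allele that Cre switches on and a floxed allele that it deletes. Both models share the hGFAP-cre driver, which acts in neural cells, and a mixed background of C57Bl6 and 129S1/Svj. Tumors were collected once a mouse showed distress, and the labels used here give no age. The whole series held 40 arrays: the 22 gliomas, 11 cell lines from p53R172HCKO gliomas, 2 lines from early biopsies of that model, and 5 control cortices. Of the cortices, 3 were hGFAP-cre+;p53floxE2-10/+ and 2 were hGFAP-cre-;p53floxE5-6/floxE5-6. In this study brains with a hindbrain medulloblastoma were found rarely and kept out of the histological analysis of gliomas. By the study's methods each p53R172HCKO tumor was paired with a cell line made from it, so those tumors and lines share animals, but the labels do not say which line belongs to which tumor. They do not give the position of any tumor in the brain either.

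Values are log2 signals of Affymetrix mouse genome arrays, and each gene took its probe set with the highest mean, which gave 18193 genes. A difference of 1 is a fold of 2. Because the tumors were chosen on a value of these same arrays, all contrasts between the 3 tumors and the other 19 are descriptions, with no test. A gene was called higher when its lowest value in the 3 tumors was above its highest value in the other 19 and the means differed by at least 1. It was called lower in the mirror case. Signals near or below 5.36, the median of the array medians, are dim, and differences that start from a dim signal may understate the change in RNA. Array medians ranged from 5.24 to 5.47. In tumor RNA, fewer cells of a type and less RNA per cell cannot be told apart.

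Neurod1 is a basic helix-loop-helix (bHLH) transcription factor that drives immature neuronal and neuroendocrine cells into differentiation. Such factors bind short sites in DNA called E-boxes, together with broadly expressed partners such as Tcf3 and Tcf4, and Id proteins hold those partners back. In the developing brain, bHLH activators follow each other in a cascade from dividing progenitors to newborn neurons, while Olig1 and Olig2, of the same superfamily, mark the oligodendrocyte lineage and many gliomas.

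The probe set for Neurod1 read 12.47 in tumor 36, 11.31 in tumor 41 and 12.60 in tumor 50. In the other gliomas it ran from 3.51 through a median of 5.79 to 9.43. Tumor 41 was the lowest of the 3, and the gliomas nearest below the threshold of 10 were array 60 at 9.43, array 58 at 8.98 and array 37 at 8.01. The second probe set for Neurod1 read 11.70, 10.31 and 11.68 in the 3 tumors and 3.55 to 8.71 in the others. Cortex, which holds mature neurons, ranged from 7.07 to 9.14 and the cell lines reached 8.15, below all 3 tumors.

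Nhlh1 and Nhlh2 encode bHLH factors of newly formed neurons. Nhlh2 read 10.84, 10.77 and 11.32 in tumors 36, 41 and 50 and 2.83 to 5.42, median 3.24, in the other gliomas, which was the largest difference of means of all genes called, at 7.51. Nhlh1 read 9.59, 9.04 and 9.58 against 3.37 to 4.27, median 3.53. In array 60, the glioma nearest to the threshold, Nhlh1 was 3.95 and Nhlh2 3.36, both dim. In array 37 they were 4.24 and 5.42. The means of both genes in the other gliomas were dim, and in the cell lines Nhlh1 did not exceed 5.08 and Nhlh2 3.44.

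**Figure D1:**
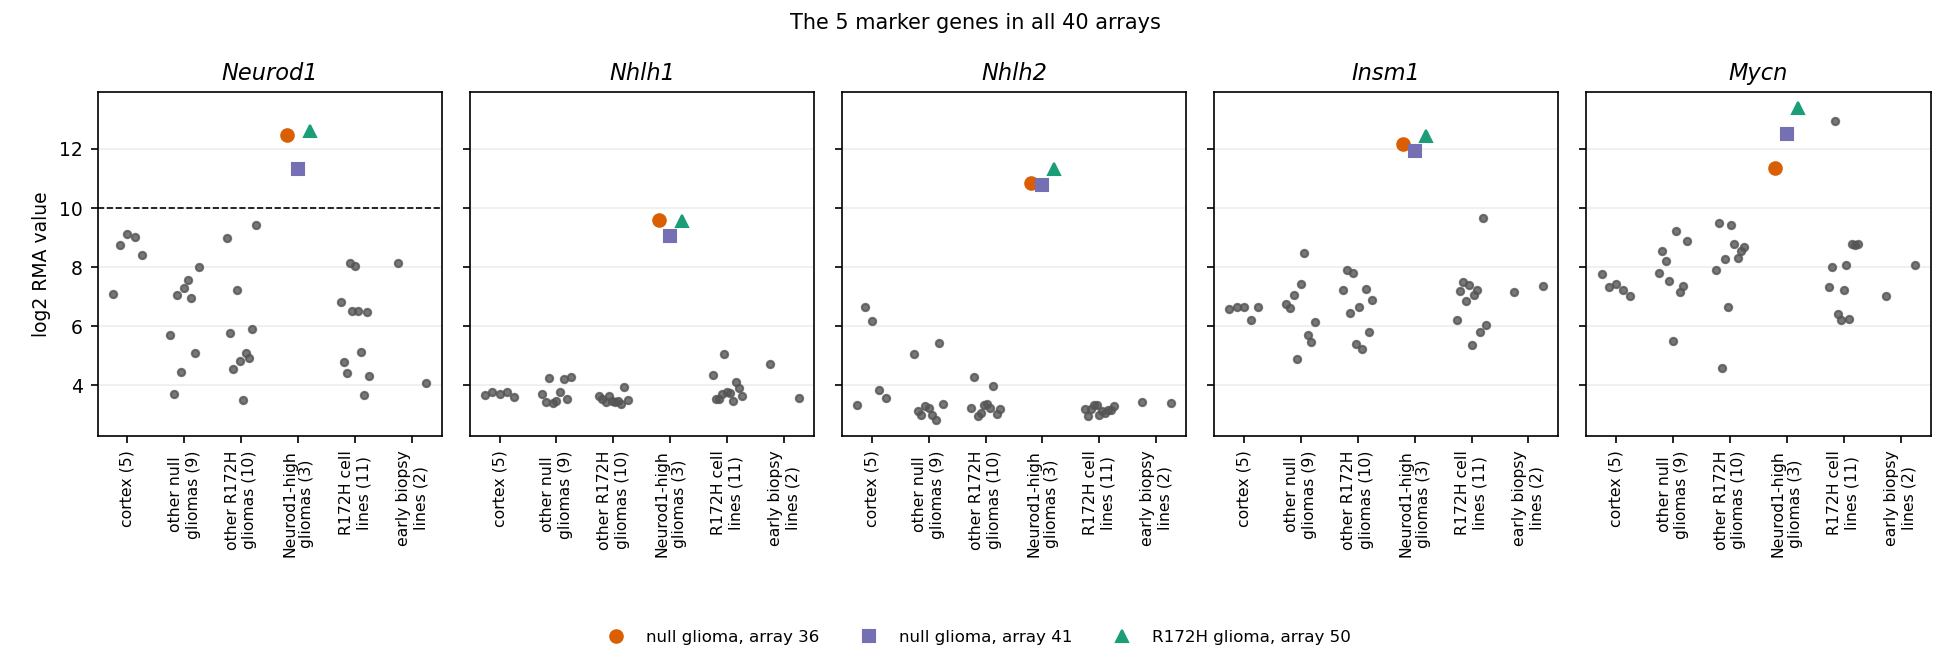
Log2 signal (vertical axis) of Neurod1, Nhlh1, Nhlh2, Insm1 and Mycn in all 40 arrays, 1 point for each array, grouped along the horizontal axis with the number of arrays in brackets; the dashed line is the threshold of 10 that chose the tumors. The 3 coloured tumors stand above every other glioma for all 5 genes, and only for Mycn does a cell line, at 12.95, reach into their range.

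Insm1 encodes a zinc-finger repressor found in dividing neuronal precursors and neuroendocrine cells. It read 12.17, 11.92 and 12.44 in the 3 tumors, against 4.90 to 8.48, median 6.66, in the others. The 3 tumors differed from each other by far less than they did from the rest. Mycn, the MYC family member of neural precursors and of several embryonal tumors, read 11.36, 12.50 and 13.39 against 4.57 to 9.49, median 8.29. A second Mycn probe set separated the tumors as well, with 7.64, 9.75 and 12.23 against 4.55 to 6.10. The third read 5.33 to 6.04 in the other gliomas and 5.84 in tumor 50, and it showed no difference.

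The upstream sequences of the genes that chose and led the group are shown because bHLH factors recognise E-boxes. Only the E-box sequences CAGATG and CAGCTG were searched. Other E-boxes, such as CATATG in the Neurod1 window and CAACTG in that of Nhlh2, were neither counted nor marked. The windows are the 250 bases before the start of each gene, 5′ to 3′ on the strand of the gene, taken from RefSeq in assembly GRCm38.p6. Capitals mark each CAGATG or its reverse complement CATCTG, an E-box of the kind that Neurod1 is known to bind. CAGCTG, which is its own reverse complement and does not overlap these, was searched too and is in none of these 3 windows. Neurod1 lies on chr2:79456637-79456886, minus strand, Nhlh1 on chr1:172057597-172057846, minus strand, and Nhlh2 on chr3:102009895-102010144, plus strand.
Neurod1: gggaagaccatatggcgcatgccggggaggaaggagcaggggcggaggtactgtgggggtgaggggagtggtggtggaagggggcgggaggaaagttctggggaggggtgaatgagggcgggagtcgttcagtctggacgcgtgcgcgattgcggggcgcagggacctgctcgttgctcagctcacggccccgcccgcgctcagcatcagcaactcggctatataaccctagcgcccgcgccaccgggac
Nhlh1: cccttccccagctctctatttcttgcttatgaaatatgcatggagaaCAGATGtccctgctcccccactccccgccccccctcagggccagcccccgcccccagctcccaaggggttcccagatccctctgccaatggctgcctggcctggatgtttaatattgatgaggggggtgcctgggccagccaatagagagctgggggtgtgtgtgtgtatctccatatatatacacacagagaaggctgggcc
Nhlh2: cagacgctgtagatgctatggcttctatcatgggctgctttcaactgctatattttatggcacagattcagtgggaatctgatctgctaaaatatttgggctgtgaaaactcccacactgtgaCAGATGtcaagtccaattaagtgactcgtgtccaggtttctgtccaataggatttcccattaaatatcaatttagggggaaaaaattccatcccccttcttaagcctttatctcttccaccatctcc

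Nhlh1 and Nhlh2 each held 1 match to CAGATG, and the windows of Neurod1 and Mycn held none. Over all 32851 windows of this length, 14.4% held CAGATG on either strand. Among the 170 windows of genes higher in the 3 tumors the share was 11.2%, beside 11.6% for all genes on the arrays. For the 312 windows of genes lower in the tumors it was 8.65%. CAGCTG stood in 11.2% of the windows of higher genes, 17.3% of those of lower genes and 12.8% of those of all genes on the arrays. A match is a description of the sequence, and binding was not measured.

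In all, 161 genes were higher in every Neurod1-high tumor than in every other glioma, 0.885% of the 18193 genes, and 278 genes were lower, 1.53%. These shares describe a contrast that the choice of tumors used, and nothing is read from them. Of the genes called, 67 were higher and 167 lower by a difference of at least 2. For 33 of the higher genes the mean of the other gliomas was dim, and for 86 of the lower genes the mean of the 3 tumors was dim. Of the 161 higher genes, 144 were also above every cortex and 88 above every cortex and every cell line. Of the 278 lower genes, 231 were also below every cortex and 117 below every cortex and cell line. Leaving out tumor 41 gave 356 higher and 565 lower genes, leaving out tumor 36 gave 239 and 445, and leaving out tumor 50 gave 325 and 386.

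After the 5 genes above, the rest of the 15 largest differences upward are given by kind of gene, beginning with transcription factors. St18, a zinc-finger factor of neuronal differentiation, had the largest of them and read 10.50, 9.65 and 10.85 in tumors 36, 41 and 50, against 3.04 to 8.25 in the others. Ebf3 read 9.66, 10.47 and 9.66 against 3.37 to 7.67, and Ebf1 read 9.63, 10.49 and 8.67 against 4.40 to 6.69. Both belong to the EBF family, which acts as newborn neurons leave the cycle and migrate. Prdm8, a repressor of the PR-domain family that shapes neuronal projections, read 9.62, 10.33 and 9.63 against 3.62 to 7.40. All 3 tumors shared these levels to within 2 log2 units.

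Homeobox genes with a role in defined neuron types were among them. Uncx read 9.79, 8.80 and 7.30 against 3.06 to 4.27. Isl1, a LIM-homeodomain factor of motor and sensory neurons, read 10.48, 7.34 and 7.80 against 3.42 to 5.51, and was highest in tumor 36 by more than 2 units. Secreted and surface proteins completed the top 15. Igfbpl1, a secreted protein of young neurons, read 9.86, 11.77 and 12.06 against 4.96 to 8.38. Draxin, a guidance cue for growing axons, read 10.52, 10.93 and 9.04 against 4.51 to 7.86. Chrna3, a nicotinic acetylcholine receptor subunit, read 9.99, 10.12 and 8.44 against 3.77 to 4.79. Mgl2, a lectin known from macrophages and dendritic cells, read 8.98, 9.49 and 7.40 against 3.04 to 4.002, while none of the 19 microglia and macrophage genes examined was higher.

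The 15 largest differences downward were led by Sox6 and Pcdh15, and 2 of the 15, Tnr and Lhfpl3, were on the oligodendrocyte progenitor list. Sox6, an SRY-box factor of oligodendrocyte progenitors, read 5.72, 6.51 and 4.96 in the 3 tumors against 8.40 to 12.14, median 10.62. Tnr, the matrix protein tenascin-R, read 4.86, 5.18 and 3.85 against 6.82 to 10.57. Lhfpl3 read 6.89, 8.24 and 4.61 against 8.39 to 12.25, so tumor 41 was close to the lowest of the others. The protocadherins Pcdh15, Pcdh7 and Pcdh11x differed by -4.43, -4.00 and -3.83 in their means. Ednrb, the endothelin B receptor of glial precursors, read 7.96, 7.16 and 5.43 against 8.32 to 12.23. The rest of the 15 were 9630013A20Rik, Prkg2, Sema3d, Vxn, Tnfaip6, Shc4, Cdh19 and Rgcc, with differences of -4.23 to -3.79. The mean over the 3 tumors was dim for 9 of these 15 genes.

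Of these 30 genes, 20 had further probe sets, 33 in number, and 25 of those gave the same call. The exceptions were 1 probe set each of Mycn, Sox6, Pcdh7 and Sema3d, and 2 each of Pcdh15 and 9630013A20Rik.

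The gene lists described next were each measured as a whole. The score of a list in a tumor is the median, over its genes, of the log2 value minus the mean of the other 19 gliomas. Over all genes the median difference between the groups was 0.02, so there was no general shift. The counts of called members below stand beside 0.885% of all genes called higher and 1.53% called lower.

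The list of neuroblast and newborn neuron genes stood higher in each of the 3 tumors than in any other glioma. Its score was 1.58 in tumor 36, 1.45 in tumor 41 and 2.23 in tumor 50, against -0.97 to 1.18 in the others. In cortex the score was 0.87 to 1.80, so tumors 36 and 41 lay inside the cortical range and only tumor 50 above it. Of the 31 genes of the list, 8 were called higher and none lower, beside 0.885% and 1.53% of all genes. The 8 were Insm1, St18, Igfbpl1, Ebf1, Ebf2, Ebf3, Elavl2 and Cntn2. Elavl2, a neuronal RNA-binding protein, read 11.95, 11.42 and 12.34 against 6.68 to 10.84. Dcx and Tubb3, the cytoskeletal proteins most used to mark young neurons, were not called. Dcx read 9.45, 8.85 and 11.52 against 3.93 to 9.90, and Tubb3 read 10.05, 8.94 and 10.48 against 3.68 to 9.37, with tumor 41 inside the range both times. Of the 4 probe sets for Dcx, 2 others were called higher. Sox4, which was 11.63 to 13.31 in the other gliomas, read 12.63, 12.76 and 12.70 in the 3 tumors, with a difference of means of -0.01.

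Genes of mature neurons did not follow the same pattern. The mature neuron list had scores of 0.69, -1.35 and -0.62, inside the range of the others. Tumors 36 and 50 were above the median score of the other gliomas, -0.82, and tumor 41 was below it. The median difference of the list was -0.54, taken from means of the other gliomas, of which 3 had high mature neuron scores. Snap25, a protein of synaptic release, read 11.63, 9.83 and 10.32, and Syt1 read 9.18, 7.76 and 6.83, both inside the range of the other gliomas. Nrgn, of mature cortical neurons, was called lower, although at 5.29 to 5.43 it was near the dim level. In cortex Snap25 was 13.30 to 13.53. The secretory granule genes that neuroendocrine cells share with neurons had scores of 0.46 to 0.54, also inside the range. Chga read 8.76, 7.60 and 9.08 and Chgb 10.03, 9.12 and 9.43, while other gliomas reached 10.95 and 12.56. Several other gliomas were higher: tumors 36, 41 and 50 ranked 6, 9 and 5 of 22 for Chga and 5, 8 and 6 for Chgb.

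Genes of oligodendrocyte progenitors had the lowest median difference of the 28 lists, at -3.33. The scores were -3.92 in tumor 36, -1.998 in tumor 41 and -4.45 in tumor 50, against -1.88 to 0.82, so tumor 41 lay just outside the range and the other tumors far outside. All 16 genes of the list differed by at least 1 downward in their means, as did 1528 of all 18193 genes. Of the 16, 5 were called lower, beside 1.53% of all genes: Tnr, Lhfpl3, Vcan, Ptprz1 and Cspg5. Olig2 read 6.03 in tumor 36, 8.96 in tumor 41 and 3.94 in tumor 50, against 8.41 to 11.21 in the others. Olig1 read 8.82, 11.21 and 7.57 against 10.88 to 13.48. For both genes tumors 36 and 50 were below every other glioma and tumor 41 was inside the range. Sox10, the master factor of the oligodendrocyte lineage, read 7.02, 8.48 and 6.30 against 6.79 to 12.47. Tumors 36 and 50 were together below every other glioma for 11 of the 16 genes, beside 3.77% of all genes. Taken singly, tumors 36, 41 and 50 were below every other glioma for 12, 6 and 15 of them, where the shares of all genes were 7.81%, 7.56% and 12.2%.

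Pdgfra, the growth factor receptor of these progenitors, behaved otherwise. It read 12.43 in tumor 36 and 11.77 in tumor 41, near the median of 12.42 in the other gliomas, and 8.09 in tumor 50, against a lowest value of 10.29. These values are of its brightest probe set. Another read 11.20 in tumor 36, against a median of 7.91 and a highest value of 12.51 in the others, and the last read 8.64, against a median of 8.04. The markers that define the lineage thus differed among the Neurod1-high tumors. By the brightest probe sets, tumor 50 was below every other glioma for Olig1, Olig2, Sox10, Pdgfra and Cspg4. On the Pdgfra probe set that read 11.20 in tumor 36, tumor 50 read 5.69, inside a range that began at 5.65.

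**Figure D2:**
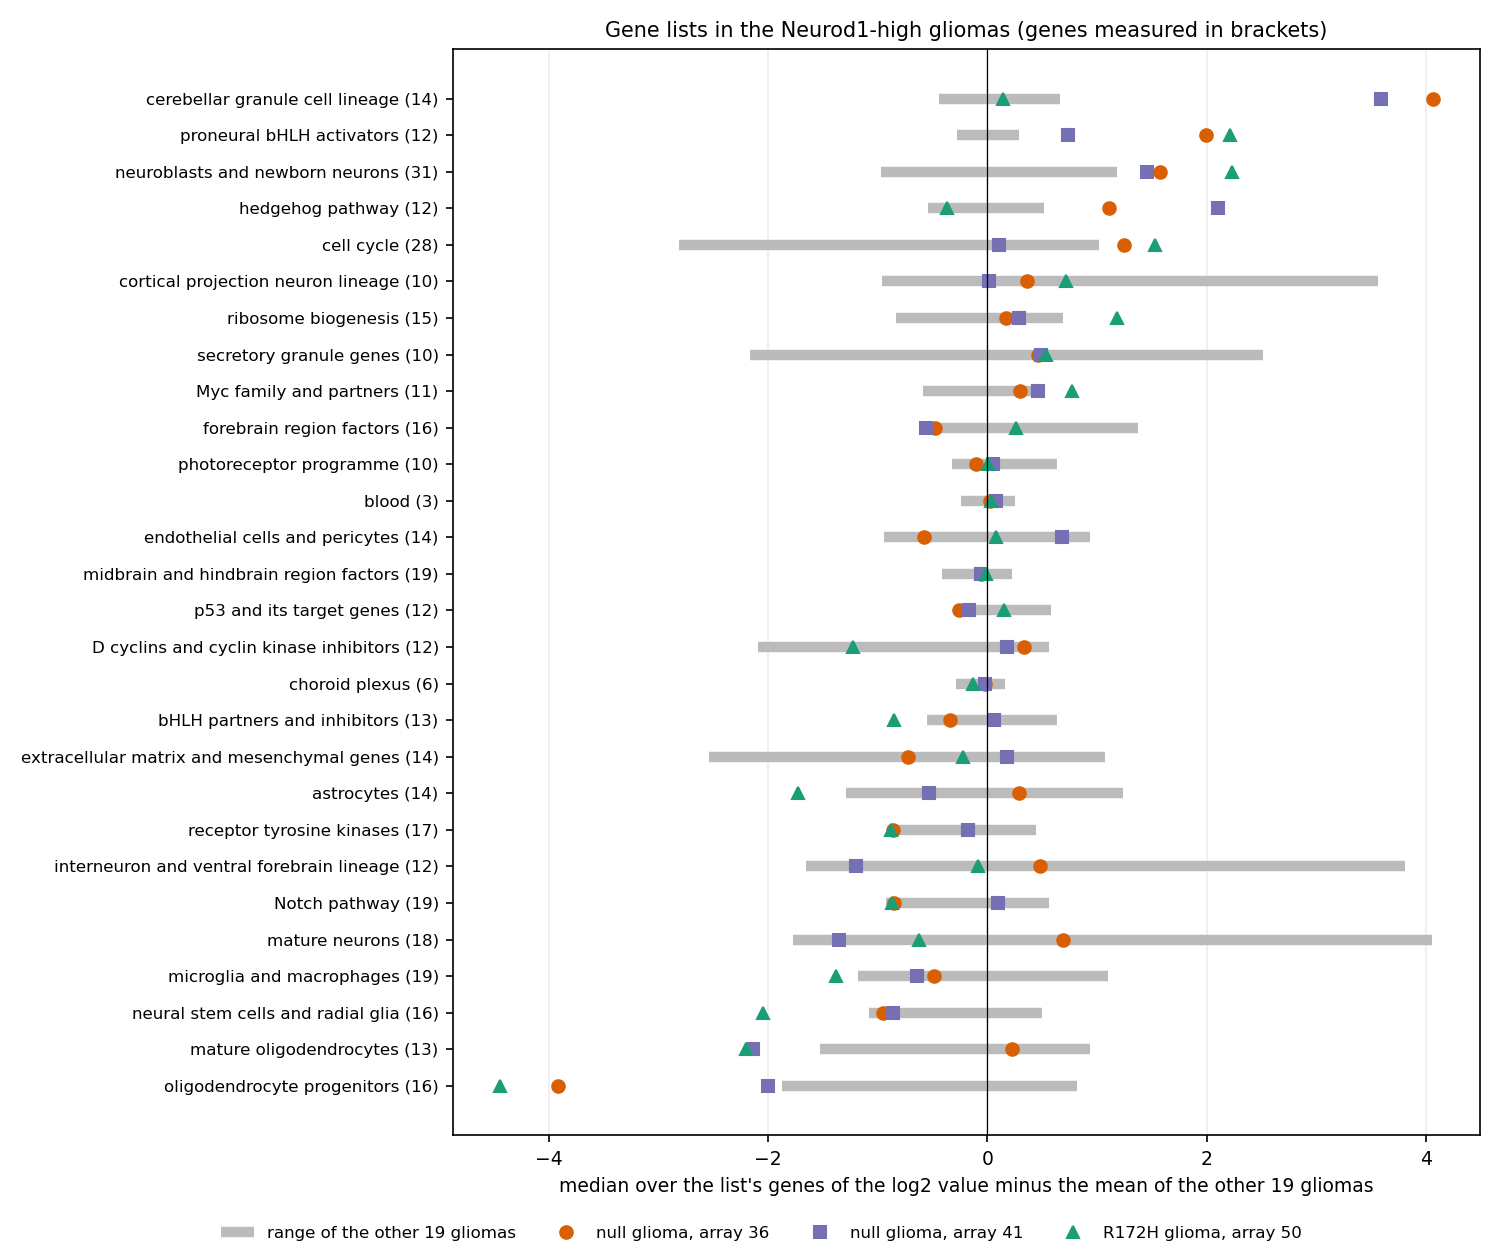
Scores of 28 gene lists, each the median over its genes of the log2 value minus the mean of the other 19 gliomas (horizontal axis), with the number of genes measured in brackets; symbols are the 3 Neurod1-high tumors and grey bars span the other 19 gliomas. Oligodendrocyte progenitor genes lie below the bar in all 3 tumors, at -3.92, -1.998 and -4.45 in tumors 36, 41 and 50. Mature oligodendrocyte genes lie below the bar in tumors 41 and 50, at -2.14 and -2.20. Cerebellar granule lineage genes lie highest in tumors 36 and 41, at 4.07 and 3.60, but at 0.15 in tumor 50.

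Mature oligodendrocyte genes split the tumors in another way. Scores were 0.23, -2.14 and -2.20, against -1.53 to 0.93 in the other gliomas. Cldn11 and Cnp were called lower, and Cnp, an enzyme of myelinating cells, read 11.20, 10.11 and 7.70 against 11.66 to 13.36. Mbp, a main protein of myelin, read 12.66 in tumor 36, 10.72 in tumor 41 and 7.63 in tumor 50, and only tumor 50 was below the range of 8.82 to 13.45.

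Among the astrocyte and stem cell genes the members moved both ways. Gfap read 8.77, 7.70 and 6.20 against 6.25 to 11.49, and Aqp4 read 10.18, 8.83 and 8.45 against 5.78 to 12.22. Fgfr3, a receptor of astrocytes and radial glia, was called lower at 6.44, 6.77 and 5.91 against 6.79 to 10.52. Nfia and Nfib, nuclear factors that act in glial and in cerebellar granule neuron development, were called higher: Nfib read 11.65, 11.59 and 12.91 against 9.15 to 11.30, and Nfia 11.19, 12.29 and 12.22 against 9.21 to 11.15. The stem cell list had scores of -0.95, -0.86 and -2.05 against -1.08 to 0.50. Sox2, the stem cell SRY-box factor, was called lower with 9.15, 9.88 and 6.20 against 10.00 to 12.09. Sox1, from the same family, read 6.30, 7.68 and 9.50, and only tumor 50 was above the highest of the others, 9.02. Id3, an inhibitor of bHLH factors, was lower at 8.33, 9.43 and 8.02 against 9.82 to 11.76, while the partner Tcf4 read 11.77, 11.99 and 12.64 against 11.12 to 12.10. In the Notch pathway, which keeps precursors from differentiating, the ligand Dll1 was the 1 gene of 19 called, beside 1.53% of all genes called lower. Dll1 read 4.74, 5.72 and 5.32 against 6.34 to 9.78. Taken singly, tumors 36, 41 and 50 were below every other glioma for 8, 1 and 7 of the 19 Notch genes. The shares of all genes were 7.81%, 7.56% and 12.2%. They were above for 1, 4 and 2, beside 8.94%, 9.37% and 13.7% of all genes.

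Genes of other cell types in the samples are given for comparison, and their part in the differences above was not tested. None of the 19 microglia and macrophage genes was called, where 0.885% of all genes were called higher and 1.53% lower. Scores were -0.49, -0.64 and -1.38 against -1.18 to 1.10, so tumor 50 was below the range. In tumor 50, 6 of the 19 genes were below every other glioma, beside 12.2% of all genes. In tumors 36 and 41 none was, beside 7.81% and 7.56%. The summed level of the 19 genes, in log2, was 13.42 to 14.35 in the 3 tumors and 13.65 to 15.36 in the others. The defining markers Aif1 and Cx3cr1 were 7.50 to 8.58 in the 3 tumors, and in tumor 50, where Aif1 was 7.52, it was below every other glioma. The homeostatic microglia gene P2ry12 read 6.84, 5.95 and 3.78 against 5.02 to 9.23. No endothelial, choroid plexus or blood gene was called, and the scores of these 3 lists lay inside the range of the other gliomas in all 3 tumors. The choroid plexus marker Ttr was dim in all 3, at 4.67 to 5.20.

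Among the proneural bHLH factors, Neurod1, Nhlh1 and Nhlh2 were high in all 3 tumors, while Atoh1 and Neurod4 each set a different tumor apart. Atoh1 is the factor that specifies the granule neurons of the cerebellum in the rhombic lip. It read 11.23 in tumor 36 and 11.13 in tumor 41, against 3.99 in tumor 50 and 3.51 to 6.02 in the other gliomas. Neurod4 left out tumor 41 instead: it read 5.60 in tumor 36, 3.07 in tumor 41 and 8.11 in tumor 50, and the other gliomas did not exceed 3.51. Neurod2 and Neurod6, factors of maturing neurons, read 7.63, 7.10 and 9.81 and 7.32, 8.23 and 9.03, and other gliomas reached 7.97 and 7.92. Neurog1, Neurog2 and Neurog3, which stand earlier in the cascade, were dim in all 3 tumors, at 3.28 to 4.35.

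The list of cerebellar granule cell genes parted the tumors as Atoh1 did. Scores were 4.07 in tumor 36, 3.60 in tumor 41 and 0.15 in tumor 50, against -0.44 to 0.66 in the other gliomas. Tumors 36 and 41 were together above every one of the other 19 for 11 of the 14 genes, beside 3.07% of all genes. Tumor 50 was above them for 2, beside 13.7% of all genes. The homeobox gene Barhl1, a target of Atoh1, read 9.15 and 10.60 in tumors 36 and 41 and 4.96 in tumor 50. Zic1, a zinc-finger factor of granule precursors, read 12.33 and 12.21 in tumors 36 and 41 and 10.76 in tumor 50, but it reached 11.43 in another glioma. Zic2, Zic4, Zic5 and Pax6 were likewise highest in tumors 36 and 41. Cbln1, a synapse organiser secreted by granule neurons, was the 1 gene of the list called, with 10.95, 10.81 and 10.14 against 4.49 to 9.29. Genes of mature granule neurons were high in tumor 36 but not in tumor 41. Gabra6, a GABA-A receptor subunit largely restricted to granule neurons, read 10.09 in tumor 36 and 3.46 and 3.37 in tumors 41 and 50. Cbln3 read 9.98, 4.66 and 3.96. Pcp2, which is known from Purkinje cells, read 8.99, 4.24 and 4.67.

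**Figure D3:**
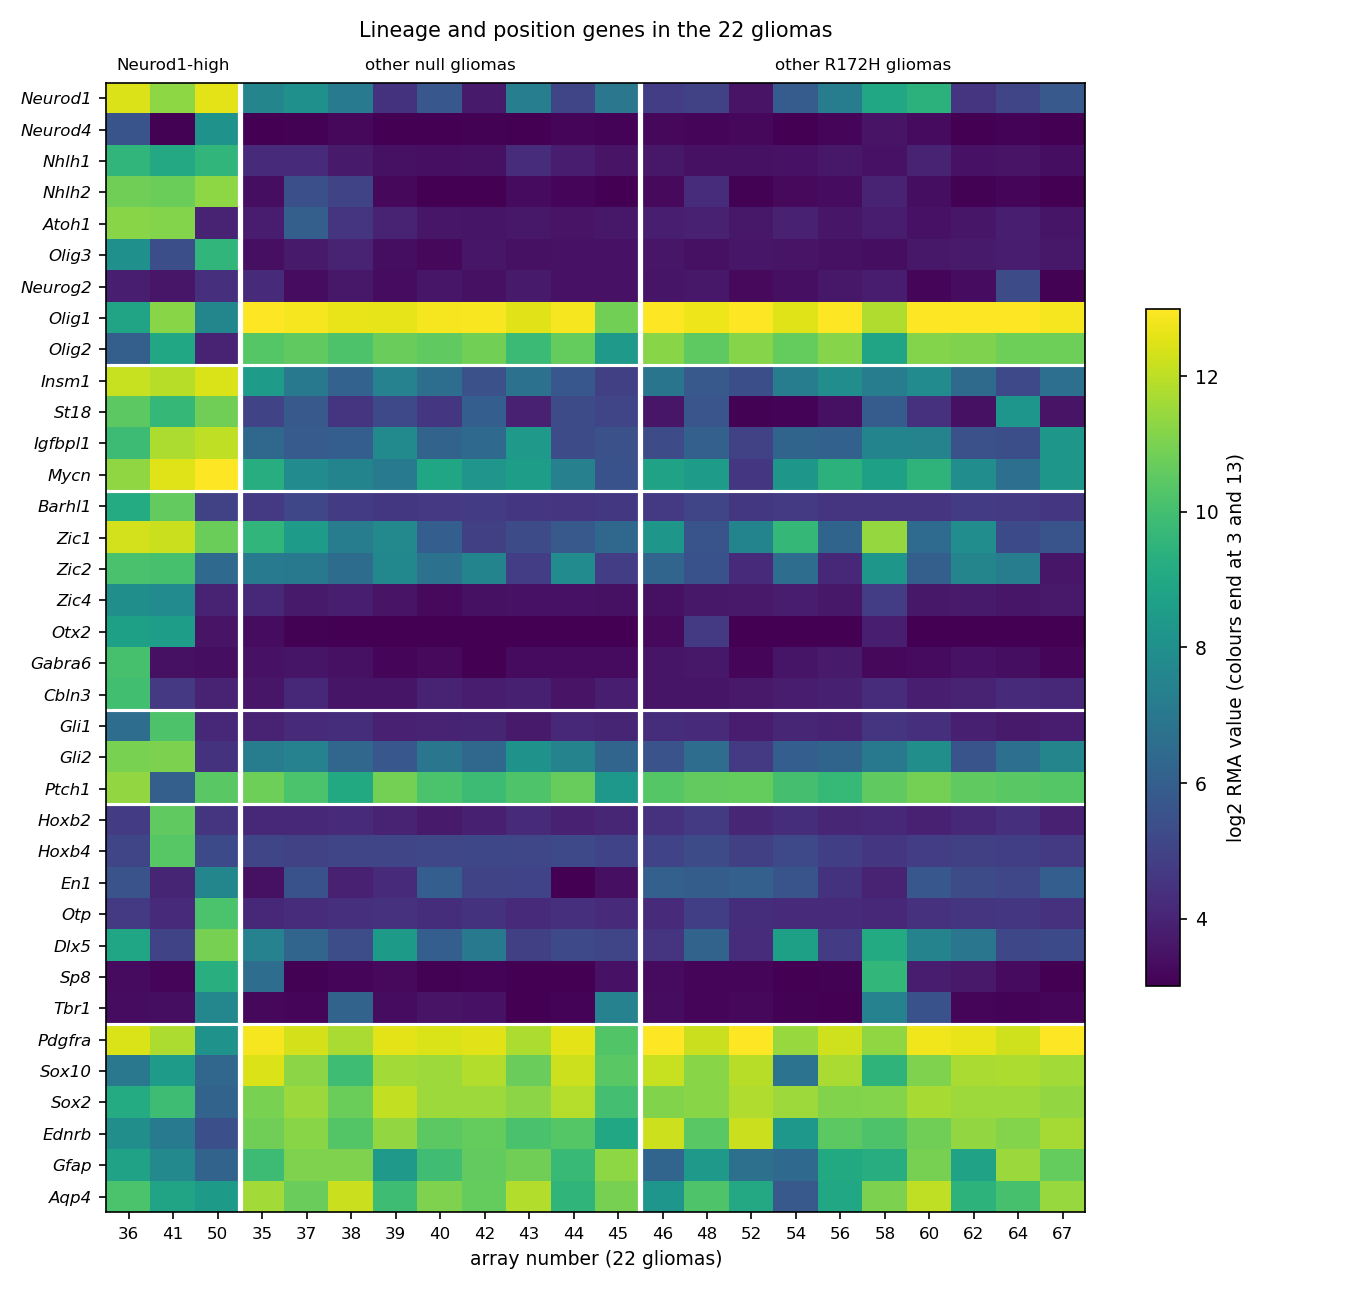
Log2 signal (colour, from 3 to 13) of genes of lineage and position in the 22 gliomas, 1 column for each array, with the Neurod1-high tumors at the left and white lines between groups of genes. Nhlh1, Nhlh2, Insm1 and St18 are high in all 3 tumors, Atoh1, Barhl1, Otx2 and Gli2 in tumors 36 and 41, Hoxb2 and Hoxb4 in tumor 41, and Otp and Neurod4 in tumor 50.

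The hedgehog pathway, which drives the division of granule neuron precursors, was higher in tumors 36 and 41 as well. Secreted hedgehog proteins release the receptor Smo from Ptch1, and Gli factors then act on target genes, with Ptch1, Gli1 and Hhip among the targets. The scores were 1.11, 2.10 and -0.37 against -0.54 to 0.51. The ligand Shh was dim in the 3 tumors, at 3.89 to 4.72. Gli1 read 6.59 in tumor 36, 10.22 in tumor 41 and 4.10 in tumor 50, where the other gliomas did not exceed 4.54. Gli2 read 11.001, 11.01 and 4.48 against 4.71 to 8.12. Hhip, an inhibitor that binds the ligand, read 8.70, 9.98 and 5.50 against 3.46 to 7.22, and the coreceptor Boc 9.06, 9.66 and 4.80 against 3.91 to 7.22. Sfrp1, a secreted Wnt inhibitor, read 12.57, 12.37 and 6.85 against 4.72 to 9.24. Sufu, which restrains Gli proteins, was the 1 gene of the list called, at 7.74, 9.32 and 8.15 against 6.25 to 7.50, on 1 of its 3 probe sets.

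The receptor gene Ptch1 parted tumors 36 and 41. It read 11.40 in tumor 36, above every other glioma, and 6.04 in tumor 41, below the lowest of the others at 8.32. Tumor 41 thus held the highest Gli1 and the lowest Ptch1 of the 22 gliomas. The DNA of these tumors was not analysed here.

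Beyond the lists, 25 genes were higher in both tumors 36 and 41 than in each of the other 20 gliomas by at least 2, 0.137% of all genes. This set was formed after the values were seen. The largest distance was that of Hsd11b2, an enzyme that inactivates glucocorticoids, which read 11.11 and 10.63 in tumors 36 and 41 and 4.13 in tumor 50. Cyp11a1, which starts steroid synthesis from cholesterol, read 9.28 and 12.53, and 4.34 in tumor 50. Otx2, a homeobox factor of forebrain, midbrain and part of the cerebellum, read 8.69 and 8.58, and 3.52 in tumor 50. Lhx1, Barhl2, Mab21l1 and Fgf8 were in the same set. Cdk6, a cyclin D kinase, read 12.91 and 12.41, and 6.05 in tumor 50, where the other gliomas did not exceed 9.51. For tumors 36 and 50 such genes numbered 4, 0.022%, and were Olig3, Neurod4, Cer1 and Lhx3. Olig3, a bHLH factor of dorsal hindbrain and spinal progenitors, read 8.03 in tumor 36, 5.40 in tumor 41 and 9.57 in tumor 50, and did not exceed 3.95 in the other 19. For tumors 41 and 50 there were 0 such genes, 0% of the total. In the lower direction there was 1 gene for tumors 36 and 41, 0.0055%, and there were 4 for tumors 36 and 50, 0.022%, which were Abtb2, Olig2, Olig1 and Vxn. For tumors 41 and 50 there were 2, Chn2 and C1ql3, 0.011%.

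Across probe sets, tumors 36 and 41 had a correlation of 0.954, tumors 36 and 50 one of 0.946, and tumors 41 and 50 one of 0.927. The medians of their correlations with the other 19 gliomas were 0.930, 0.930 and 0.912 for tumors 36, 41 and 50, and the median among the other gliomas was 0.954. These correlations run over probe sets, which are not independent.

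Each tumor also had genes of its own, here those outside the range of all the other 21 gliomas and at least 2 units from each. In tumor 36 there were 12 higher and 3 lower, 0.066% and 0.0165% of all genes. They were led by Gabra6, Cbln3 and Pcp2, followed by Crtam at 8.44 and Itgbl1 at 7.10. In tumor 41 there were 38 higher and 2 lower, 0.209% and 0.011%. In tumor 50 there were 18 higher and 51 lower, 0.0989% and 0.28%.

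In tumor 41 the largest distance of all was that of Saa1, an acute-phase serum amyloid protein, which read 12.96 where the other 21 gliomas did not exceed 3.84, and its near copy Saa2 read 11.20. Saa1 and Saa2 are alike in sequence, so that their signals may be shared. Next came neighbours in the Hoxb cluster, whose genes give position along the hindbrain and spinal cord. Hoxb2 read 10.54, Hoxb3 8.93, Hoxb4 10.42, Hoxb5 10.18 and Hoxb6 9.59, and each was at least 2 units above the other 21 gliomas. Hoxb1 on one side, at 2.87, and Hoxb7 and Hoxb9 on the other, at 4.18 and 4.05, were dim in tumor 41. Hoxb13 was dim as well, at 4.19. The comparison of Hox clusters was chosen after these values were seen. None of the 9 Hoxa genes was higher in tumor 41 than in every other glioma, nor any of the 8 Hoxd genes. Of the 7 Hoxc genes, Hoxc6 was just above, at a dim 4.79 against 4.77. Of all genes, 9.37% were higher in tumor 41 than in each of the other 19 gliomas. The counts for these 3 clusters are near that share, so nothing is read from them. Hoxa2 read 4.15, 4.60 and 4.09 in the 3 tumors, inside the range of 4.02 to 8.005 in the others, and was not called. In cortex Hoxb5 did not exceed 3.32 and in the lines 3.39.

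**Figure D4:**
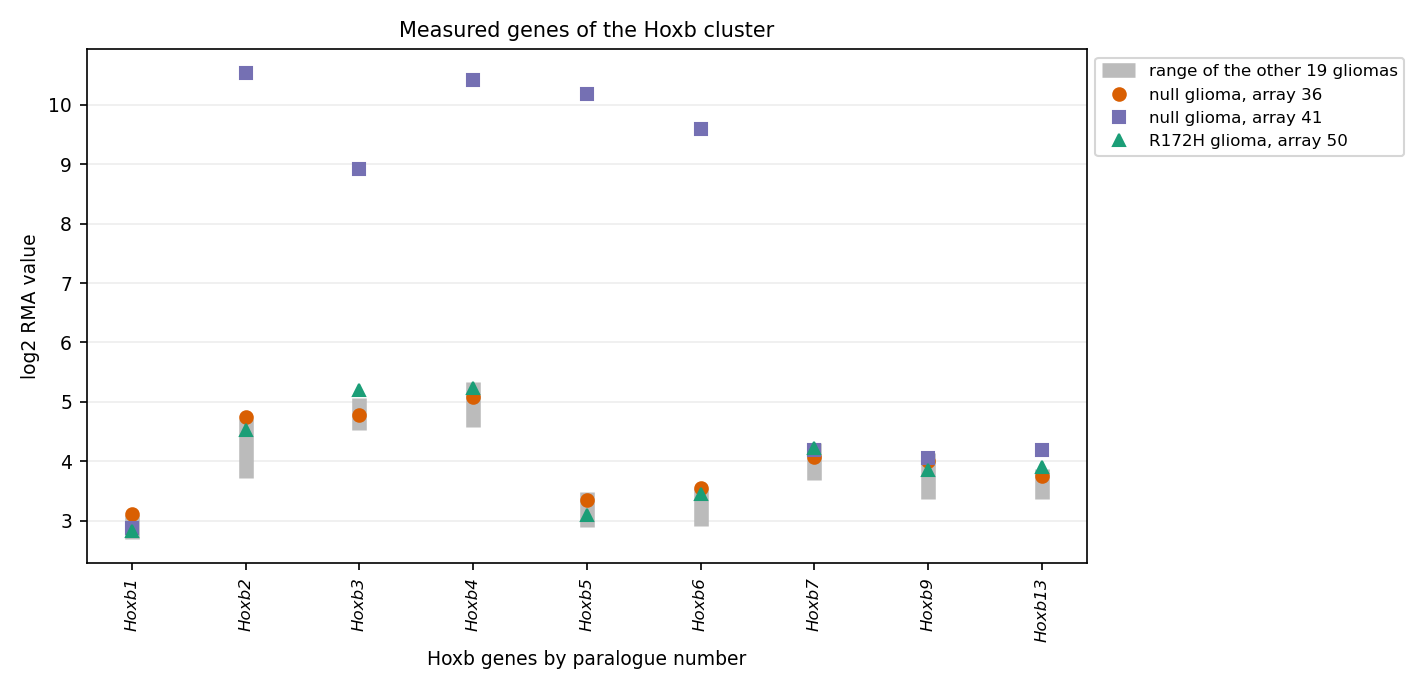
Log2 signal (vertical axis) of the 9 measured Hoxb genes in order of their number (horizontal axis); symbols are the 3 Neurod1-high tumors and grey bars span the other 19 gliomas. From Hoxb2 to Hoxb6 tumor 41 reads 8.93 to 10.54 while tumors 36 and 50 lie at or near the level of the other gliomas, and at Hoxb1 and from Hoxb7 on all tumors are low.

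Most of the genes particular to tumor 50 were lower. Crabp1, a retinoic acid binding protein of the embryonic hindbrain and neural crest, read 11.78 where tumors 36 and 41 read 3.51 and 4.49. Otp, a homeobox factor of hypothalamic and some hindbrain neurons, read 10.18, against at most 4.85 in the other 21 gliomas. Frem1 read 10.90. Trp73, which belongs to the p53 family, read 8.67, and 5.01 and 4.53 in tumors 36 and 41. Fgf15 read 13.22, but it also reached 10.47 in another glioma. Single region factors of the forebrain differed in direction in tumor 50. Dlx5 read 10.96 and Sp8 9.32, while other gliomas reached 9.09 and 9.62, but Dlx2 read 3.80, below every other glioma, and Dlx1 3.91, which is dim. The score of the forebrain list in tumor 50 was 0.26, inside the range of -0.62 to 1.38. En1, of the midbrain and hindbrain border, read 7.60 in tumor 50 and 5.54 and 4.03 in tumors 36 and 41. Among its lowest genes were the glutamate receptor subunit Gria3, at 3.52 against 7.88 and 10.05 in tumors 36 and 41, Etv5, at 5.24, and Metrn, at 6.73.

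The position factors as lists showed no common direction. Of 16 forebrain and 19 midbrain and hindbrain factors none was called. En2 was the hindbrain factor nearest to a common level, at 8.97, 8.11 and 9.03 against 4.60 to 9.002. Irx1 read 5.75, 5.14 and 3.50 against 5.08 to 8.29, and Irx3 7.04, 6.55 and 4.90 against 4.64 to 9.41.

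Proliferation genes as a list were higher in tumors 36 and 50 than in any other glioma, and tumor 41 lay inside the range. The cell cycle score was 1.25 in tumor 36, 0.11 in tumor 41 and 1.53 in tumor 50, against -2.81 to 1.02. Tumors 36 and 50 were above all 19 others for 15 and 18 of the 28 genes, and tumor 41 for 2, where the shares of all genes were 8.94%, 13.7% and 9.37%. Mki67 read 9.72, 10.11 and 11.02 against 6.11 to 10.70, and Top2a 12.003, 10.77 and 12.18 against 7.18 to 11.84. E2f1, a factor of the entry into DNA synthesis, was the 1 cell cycle gene called, at 8.78, 8.55 and 9.95 against 5.96 to 7.24. Ccnd1 and Ccnd2 were inside the range of the others in all 3. Of the p53 target genes, Plk2 and Phlda3 were called lower and Eda2r higher, where 1.53% of all genes were lower and 0.885% higher. Eda2r, a receptor of the TNF family, read 7.52, 6.24 and 7.51 against 3.73 to 5.73. Cdkn1a, the best known target, read 8.70, 9.12 and 8.10 against 7.85 to 11.28 and was not called. Trp53 itself was not analysed here.

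Within the list of the Myc family and its partners, 2 of 11 genes were called, both higher, beside 0.885% of all genes. They were Mycn and Mycl. Mycl read 9.35, 10.32 and 9.58 against 4.98 to 9.02. Myc itself read 7.81 and 8.64 in tumors 36 and 41, inside the range of 7.04 to 10.89, and 5.86 in tumor 50, below it. Tumor 50 had the highest Mycn, and 13 of the 15 ribosome biogenesis genes were above all 19 other gliomas in it, beside 13.7% of all genes. In tumors 36 and 41 that held for 2 and 1 of these genes, beside 8.94% and 9.37% of all genes. The score of that list was 0.17, 0.29 and 1.18 in the 3 tumors, against -0.83 to 0.69. Ncl, a nucleolar protein, read 12.95 in tumor 50 and 11.04 to 12.46 in the other 19.

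The genes next to Mycn on chromosome 12 set tumor 50 apart from the other Neurod1-high tumors. Ddx1, an RNA helicase, and Nbas, which acts in vesicle transport, lie on one side of Mycn, and Cyria, a regulator of the actin cytoskeleton, on the other. Nbas read 13.08 in tumor 50, 7.55 in tumor 36 and 8.04 in tumor 41, and 6.99 to 8.54 in the other gliomas. Ddx1 read 14.21 in tumor 50, 11.01 in tumor 36 and 11.44 in tumor 41, against 9.97 to 12.06. Cyria read 12.70 in tumor 50 and 8.12 and 8.30 in tumors 36 and 41, against 8.13 to 10.72. These 3 genes were above every other glioma in tumor 50 and at or near the level of the rest in tumors 36 and 41, although Mycn was high in all 3.

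The second probe sets gave the same picture: 7.37 for Nbas in tumor 50 and at most 4.14 in the other 21 gliomas, 13.56 and at most 11.15 for Ddx1, and 10.39 and at most 6.19 for Cyria. Farther out most signals lay in the range of the others. Lratd1 and Trib2, beyond Nbas, read 4.25 and 9.38 in tumor 50, against 3.49 to 9.31 and 8.86 to 11.44. Vsnl1, beyond Cyria, read 4.46 against 3.33 to 11.65. Of the 20 neighbours, 5 were above every one of the other 19 gliomas in tumor 50, 1 in tumor 36 and 0 in tumor 41, while 1, 3 and 2 were below. For tumors 50, 36 and 41 the shares of all genes were 13.7%, 8.94% and 9.37% above, and 12.2%, 7.81% and 7.56% below. The gene below in tumor 50 was Lpin1, at 7.32 against a lowest value of 7.41. The other genes above in tumor 50 were 4921511I17Rik, which was dim at 4.12, and Gen1, at 7.39 against at most 6.91, which was also high in tumor 36, at 7.03. DNA copies were not measured on these arrays.

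**Figure D5:**
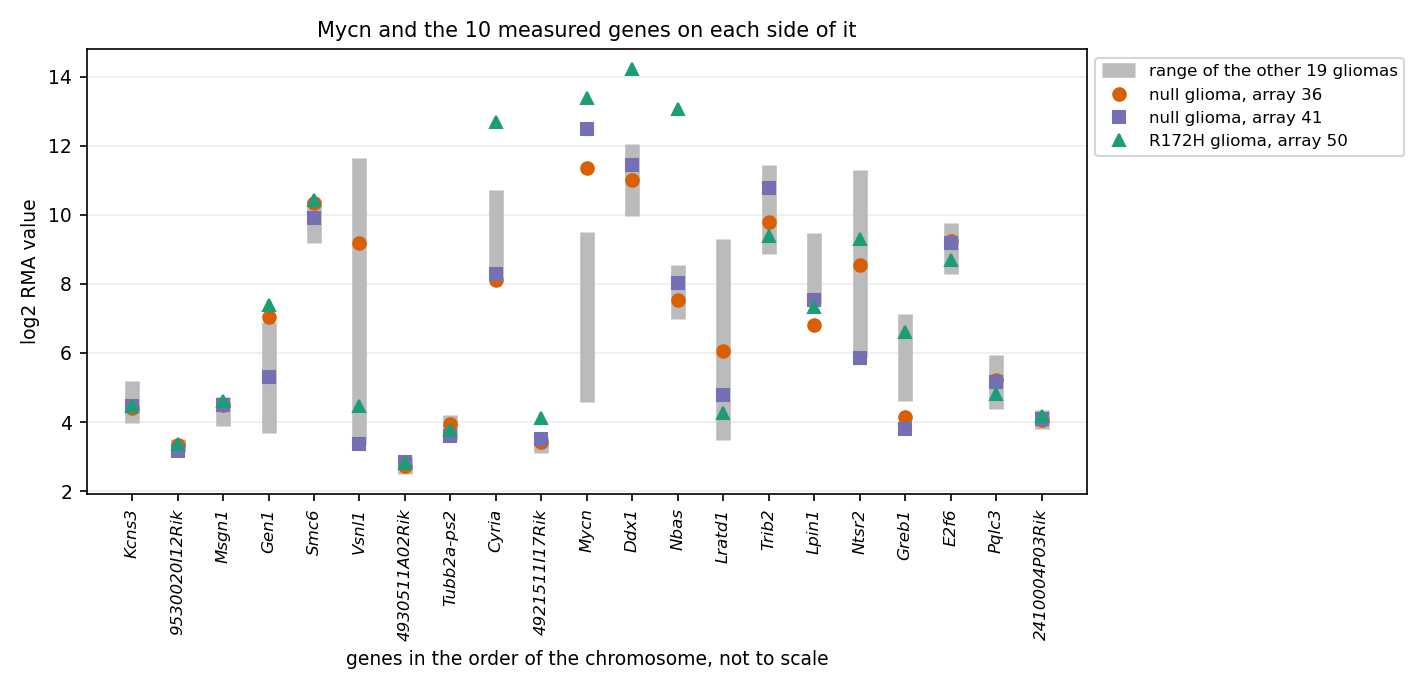
Log2 signal (vertical axis) of Mycn and the 10 measured genes on each side, in chromosome order and not to scale (horizontal axis); symbols are the 3 Neurod1-high tumors and grey bars span the other 19 gliomas. Tumor 50 reads 12.70 at Cyria, 13.39 at Mycn, 14.21 at Ddx1 and 13.08 at Nbas, all above the bars, and of these 4 genes tumors 36 and 41 stand above the bar at Mycn alone.

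A cell line held the same block without the Neurod1 and Nhlh2 levels of the tumors, a comparison made after these values were seen. In the p53R172HCKO line of array 47, Cyria read 12.98, Mycn 12.95, Ddx1 14.16 and Nbas 13.23, while the other 12 lines did not exceed 9.23, 8.79, 11.35 and 8.72. Its Neurod1 was 8.05 and its Nhlh2 3.07, which lay inside the range of the other lines. Insm1, at 9.65, St18, at 6.01, and Nhlh1, at 5.08, were above the other lines, whose highest values were 7.51, 4.95 and 4.72, but below the 3 tumors. Olig2 in this line was 11.03 and Sox2 12.83. The labels do not say from which p53R172HCKO tumor this line was made.

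Whole chromosomes were described by the median, over genes that were not dim in the other gliomas, of a tumor's value minus the mean of the others. Of 60 such medians, 13 lay outside the range of the other 19 gliomas, 4 in tumor 36, 6 in tumor 41 and 3 in tumor 50. Tumors 36 and 41 shared 3 of them, with 0.31 and 0.31 on chromosome 6, above a range that ended at 0.28, -0.39 and -0.40 on chromosome 7, and -0.41 and -0.61 on chromosome 13. Tumors 41 and 50 shared chromosome 16, at -0.45 and -0.19, and chromosome 17, at 0.27 and 0.17. Some of the 13 lay only just outside. In tumor 50, chromosome 11 read -0.156 against a lowest value of -0.151 in the others, and chromosome 16 was close to their lowest, -0.171. No expected share was worked out for the 13, so the count is a description only. On chromosome 12, which carries Mycn, the medians of all 3 tumors were inside the range, at 0.10, 0.05 and -0.11. In tumor 41 chromosome 19 stood at 0.52, where the others ranged from -0.53 to 0.39.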

How the data were processed

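RNA of 22 gliomas, 13 cell lines and 5 cortices was hybridised to Affymetrix mouse genome 430 2.0 arrays, 1 array a sample. The deposited values are log2 signals per probe set, made by the authors with a background correction, quantile normalization over the 40 arrays and the RMA summary. The base of the logarithm is not stated and was taken from the range of 2.00 to 14.47. Since all arrays were brought to a single distribution, a shift of most genes would not be seen. Of 45101 probe sets, 64 controls were left out and 34945 with 1 gene symbol were used, of which 34741 matched RefSeq genes of GRCm38.p6. A further 932 with several symbols and 9160 without a symbol were not used. Where a gene had several probe sets, the brightest by its average over all arrays was taken, with no filter on dim signals.

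The tumors were chosen by their Neurod1 value, and the members and lists were chosen with earlier results of these data known. No test was made, since every gene of the contrast shares the arrays that chose the tumors. The rule for named genes took the 5 marker genes, the 15 largest differences each way among called genes, and of each of 28 lists up to 5 called members, or up to 3 with the largest difference where none was called. It also took the first 2 genes of each cell type list, bHLH and region factors above 8 in a glioma, the 5 largest distances of each tumor and the 10 genes on each side of Mycn. Other list members, Hox genes and genes shared by a pair of tumors were named after their values were seen. Alternatives changed the probe set rule, the filter, the minimum difference, the threshold, the genotype and the normalization (cyclic loess, limma 3.58.1 under R 4.3.3). The steps ran in Python 3.11.15 with pandas 2.3.3 and were tested on simulated data. The labels name no batch. By the study's methods each p53R172HCKO tumor and 1 cell line come from the same animal, and the labels do not give the pairs. How firmly a group can be described is set by its number of arrays.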

Additional observations from a re-analysis of the deposited data

Results flagged for a closer look

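In the 5 cortices the lowest value of Insm1, 6.21, stood apart from the other 4, which lay between 6.58 and 6.67, with a gap of 0.824 of the whole range. Chance flags about 1 in 20 such groups, and all 3 Neurod1-high tumors were above 11 for this gene.

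Among the cell lines, which the contrast between gliomas did not use, 3 of the marker genes were above the highest cortex. Nhlh1 reached 5.08, and 6 lines were above the cortical maximum of 3.78, but all these Nhlh1 signals were dim. Insm1 reached 9.65, and 9 lines were above 6.67. Mycn reached 12.95, and 7 lines were above 7.78. All 3 highest values came from the p53R172HCKO line of array 47.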

How the results depend on the processing

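The choice of tumors fixes the direction of Neurod1. Nhlh1, Nhlh2, Insm1 and Mycn stayed higher under the alternatives run on them, but averaging all probe sets of a gene took Mycn from 4.48 to 2.95 and Nhlh1 rose to 6.05 with medians in place of means. Against the 161 higher and 278 lower genes, the counts were 529 and 724 within the p53nullCKO gliomas and 1051 and 1760 within the p53R172HCKO gliomas, which hold 1 Neurod1-high tumor. With 1 tumor left out they ranged from 239 to 356 higher and from 386 to 565 lower. A minimum difference of 2 gave 67 and 167, no minimum gave 280 higher, and leaving out 3 gliomas with high mature neuron scores gave 420 lower. A Neurod1 threshold of 9 chose 4 gliomas and gave 20 and 4, and a threshold of 8 chose 6 and gave 1 and 0: fewer genes separate a wider group. Within the p53R172HCKO gliomas 6 lists, not 3, had a median of at most -1, and the hedgehog list turned to -0.36, since only tumor 50 is left there. With only the 12844 genes above the dim level, 9 genes were particular to tumor 36 and 13 to tumor 41, and averaged probe sets gave 40 for tumor 50 and 41 for tumor 41, against 15, 40 and 69 for tumors 36, 41 and 50, so tumor 50 no longer had the most. Of 308 list medians recomputed over 11 alternatives, 281 kept their sign. No paired analysis was possible because the labels give each array its own number and no number is shared between groups.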
